A study of Mus musculus with 8 samples.

Results

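The cytosolic ribosomal protein genes were followed here in pharyngeal mesoderm and hearts of mouse embryos lacking Isl1, a LIM-homeodomain transcription factor of cardiac progenitors. Genes were taken by symbol (Rpl or Rps followed by a number, the stalk genes Rplp0 to Rplp2, and Rpsa), without the Rps6k kinases and without symbols of pseudogenes, and 1 transcript entry per symbol was used, the one with the most reads. This gave 84 of 20701 symbols, 52 of the large and 32 of the small ribosomal subunit. The tissue came from 4 wild-type (WT) and 4 Isl1-/- (KO) embryos of strain C57BL/6 at E8.75 (6 somites), with 1 embryo per library. The genotype comparison asks which genes depend on Isl1 in early heart formation, and RNA was measured by RNA sequencing as read counts per transcript. How the mutant allele was made was not given in the sources used here. By its label, the library of KO embryo 2 was made from total RNA, while the labels of the other 7 give polyA RNA.

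A cytosolic ribosome consists of a large and a small subunit, each built from ribosomal RNA and a fixed set of proteins, most of them present in equal numbers and encoded by a single active gene. The mRNAs of these proteins are short and abundant, begin with a run of pyrimidines at the cap (the 5′ TOP motif), and are translated under the control of mTOR and LARP1. In mammals they have left many processed pseudogenes, intron-less copies in the genome whose sequence can equal that of the parent mRNA.

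Total counts were 23480456 to 26153048 in the WT and 18916449 to 25047024 in the KO embryos. Isl1 itself, the targeted gene, was read at 9.72, 9.76, 26.9 and 23.3 counts per 1000000 reads (CPM, scaled between libraries by TMM) in WT embryos 1 to 4 and at 2.32, 2.16, 1.78 and 2.40 in KO embryos 1 to 4. It was thus lower in every KO than in every WT embryo (log2 fold change −3.003 ± 0.36 SE, edgeR quasi-likelihood test, FDR = 0.0041), in the direction of the labels. All 10 cardiomyocyte markers examined were read in every library, with a summed level of 3053 to 4546 CPM in WT and 1635 to 2474 CPM in KO embryos, and 9 of them were called lower at an FDR under 0.05 (median log2 fold change −0.99). Primitive erythroid markers summed to between 370 CPM in WT embryo 3 and 3129 CPM in KO embryo 2, and yolk sac and visceral endoderm markers to between 406 CPM in KO embryo 1 and 6533 CPM in KO embryo 2. In bulk tissue, fewer cells of a type and less RNA per cell cannot be told apart. Reads of the 4 Y-linked genes counted were present in WT embryo 4 and KO embryos 1, 3 and 4 and all but absent in the other embryos.

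The sequences around annotated start sites were searched for runs of pyrimidines. Each line below gives 15 bases on either side of the start annotated by RefSeq (build GRCm38.p6), read 5′ to 3′ on the gene's strand, with capitals marking a run of C and T of at least 8 bases that touches the 10 bases before or after the start. Rpl4, the highest member here, Rplp2 of the stalk, Rps6, Rpl38 and Rps27 were picked as examples with such a run, and Rpl10 as a member without one. In Rpl4 the run ends before the annotated start, so by that annotation it lies outside the mRNA. A run near the start is not in itself a 5′ TOP motif at the cap.
Rpl4 (chr9:64173372-64173401, plus strand): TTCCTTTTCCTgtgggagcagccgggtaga
Rplp2 (chr7:141447636-141447665, plus strand): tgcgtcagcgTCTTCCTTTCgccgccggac
Rps6 (chr4:86857353-86857382, minus strand): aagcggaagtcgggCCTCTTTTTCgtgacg
Rpl38 (chr11:114668565-114668594, plus strand): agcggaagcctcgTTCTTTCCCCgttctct
Rps27 (chr3:90213634-90213663, minus strand): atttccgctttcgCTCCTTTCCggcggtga
Rpl10 (chrX:74270801-74270830, plus strand): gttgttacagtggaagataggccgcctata

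Of the 64 members with a promoter entry, 28 (43.8%) held such a run on the coding strand, against 13.5% of all 27025 promoters and 9 of 69 promoters of mitochondrial ribosomal protein genes (13.0%). The search used the annotated start as it stands, so a start placed a few bases off can hide a run. Among members tested, the 28 with a run had a median log2 fold change in KO over WT embryos of −0.21, and the 33 without one −0.23.

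A second set of sequences shows what the reads of these genes had to be told apart from. Every 50-base window of each member's transcript was looked up in the mm9 genome (NCBIM37), and a window counted as repeated if the same 50 bases stood at another place. The lines below give, for members at either end of the scale, the coding window within 1 exon that had the most exact copies elsewhere, in mm9 coordinates. These copies numbered 1 for Rpl4, the member with the highest level, and 10 for Rpl10, 11 for Rps6 and 21 for Rps12.
Rpl4 (chr9:64022672-64022721, plus strand): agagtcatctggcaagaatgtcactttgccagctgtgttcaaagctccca
Rpl10 (chrX:71517180-71517229, plus strand): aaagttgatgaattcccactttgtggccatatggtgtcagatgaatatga
Rps6 (chr4:86500677-86500726, minus strand): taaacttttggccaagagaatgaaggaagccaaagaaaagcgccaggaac
Rps12 (chr10:23505035-23505084, minus strand): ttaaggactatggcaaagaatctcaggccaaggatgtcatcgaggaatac

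Although most of the proteins are needed in equal numbers, the measured mRNA levels of the 81 members tested differed by up to 1035-fold per length. Levels between genes are given as RPKM (counts per 1000000 reads and per kilobase of transcript), as means over the 8 embryos. Rpl4, a large-subunit protein of the exit tunnel, stood at 1024 ± 122 RPKM (SD, n = 8), with 1169, 1172, 838 and 1021 RPKM in WT and 969, 923, 1130 and 968 RPKM in KO embryos 1 to 4. The next highest included Rplp1 of the stalk (974 RPKM), Rpl8 (802) and Rpl32 (731). At the low end of the members tested stood Rps29 with 0.989 ± 0.351 RPKM, read by only 7 to 24 counts per embryo, then Rpl38 (1.44 RPKM), Rps13 (1.52), Rps16 (1.85) and Rps23 (1.97). Of the 81 members tested, 31 lay above 100 RPKM and 18 below 10 RPKM, with a median of 69.9 RPKM. In the order of levels, 79 of 80 neighbouring pairs overlapped between embryos, and only Rps4x (lowest embryo 218 RPKM) lay wholly above the member next below it, Rps2 (highest embryo 216 RPKM). The 5 members with the most counts took 37.4% of all member counts.

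The members with low levels were mostly those whose sequence stands elsewhere in the genome. For 78 tested members with a matching transcript in the mm9 annotation, the 9 with under 20% of windows repeated had a median of 112 RPKM, and the 25 with at least 80% repeated had 10.5 RPKM. The bins between lay at 94.9 RPKM (19 members, 20 to 50%) and 69.9 RPKM (25 members, 50 to 80%). Across these members, level and percent repeated were related with Spearman's rho = −0.51 (Pearson's r on log2 RPKM −0.52, n = 78), while level and transcript length were not closely related (rho = 0.13, n = 81). These points share the same libraries and genes are not independent of each other, so the values are descriptions. The range within a bin stayed wide, since Rps4x, an X-linked small-subunit gene with 84.3% of windows repeated, stood at 310 RPKM. Because the treatment of reads that match several places was not stated, levels of members with repeated sequence cannot be read as amounts of mRNA.

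**Figure D1:**
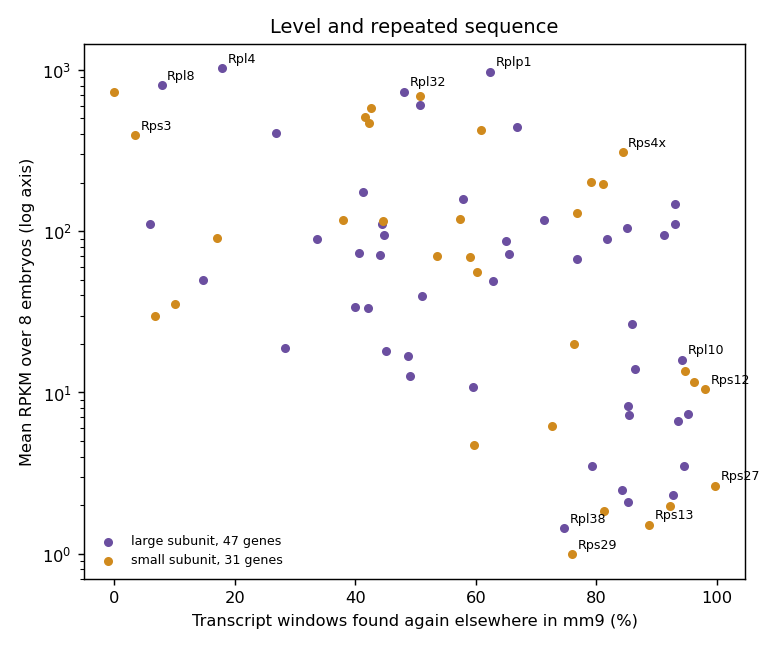
Mean RPKM over the 8 embryos (log axis) against the percentage of 50-base transcript windows found again elsewhere in mm9, for 78 tested ribosomal protein genes, with the large subunit in purple and the small subunit in orange. Members below 10 RPKM lie to the right, at high percentages, whereas Rps3, Rpl8 and Rpl4 lie at the upper left.

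Members together took 2.12, 2.21, 1.51 and 1.95% of counts in WT embryos 1 to 4 and 1.84, 1.73, 2.08 and 1.78% in KO embryos 1 to 4. The groups overlapped, at 1.95 ± 0.310% in WT and 1.86 ± 0.156% in KO embryos (SD, n = 4 each), because WT embryo 3 was the lowest and KO embryo 3 the third highest of the 8 embryos. Leaving out WT embryo 3, the WT embryos stood at 2.09 ± 0.129%.

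Nearly all members leaned the same way between genotypes, and none of them passed the test alone. Of 81 members tested, 78 had a log2 fold change below 0 in KO over WT embryos, against 48.8% of all 14075 genes tested. The 3 others, Rpl39, Rpl14 and Rps4x, lay at 0.02, 0.01 and 0.01, and below 0 without WT embryo 3 or with a Y-linked covariate. The median log2 fold change was −0.20 (13.0% lower), −0.18 for the 49 large-subunit and −0.24 for the 32 small-subunit genes. It was 0.01 for all genes and −0.08 for 766 other genes with transcripts of at most 1000 bases. Of these 766 genes, 503 lay below 0. By edgeR, 0 of 81 members passed an FDR of 0.05 (background 0.973% of genes, 0.867% lower and 0.107% higher in KO), and the lowest member FDR was 0.0638. At an unadjusted p under 0.05, 24 members (29.6%) were lower and 0 higher, where the background was 10.1% lower and 7.37% higher. Members varied together between libraries, so these counts are not counts of independent events.

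The number of members past the threshold depended on the tool and on the embryos included. DESeq2 called 7 members lower (background 3.33%), namely Rpl5, Rpl10, Rpl10a, Rpl27, Rplp2, Rps12 and Rps27a, and gave 23 an unadjusted p under 0.05 (background 9.83% lower). Without WT embryo 3, edgeR called 8 members lower (background 2.71%), among them Rpl5, Rpl10, Rpl10a, Rpl27, Rpl32l, Rps12 and Rps21, and 46 had an unadjusted p under 0.05 (background 13.9% lower). Without KO embryo 3 it called 1 member, Rpl9 (background 0.664%), and 33 had an unadjusted p under 0.05 (background 9.6% lower). Without WT embryo 1 the latter count was 12 (background 6.66% lower), the smallest of the 8 omissions. The median log2 fold change stayed below 0 in each omission, from −0.29 to −0.14. Y-linked reads were unevenly spread over the genotypes, being present in WT embryo 4 and KO embryos 1, 3 and 4. With a Y-linked covariate no member passed, the lowest edgeR FDR being 0.166 (Rpl10). Fewer members than in the main fit then had an unadjusted p under 0.05, and no background is given for that setting.

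**Figure D2:**
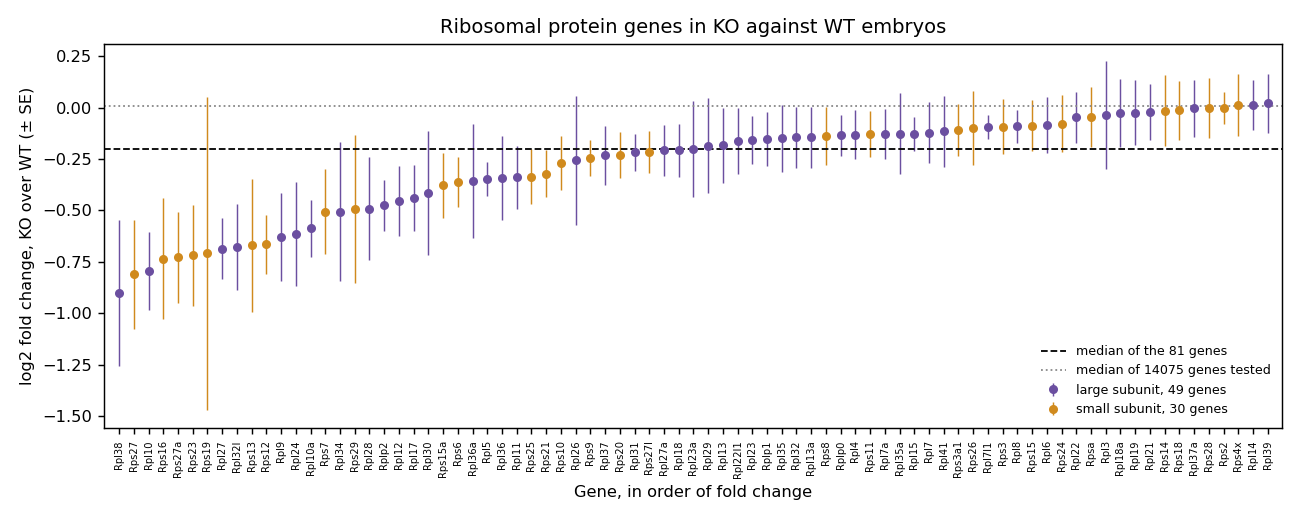
Log2 fold change in KO over WT embryos with its standard error for 79 of the 81 tested ribosomal protein genes, in order of fold change, with the large subunit in purple and the small subunit in orange. The dashed line marks the members' median of −0.20 and the dotted line the median of all 14075 genes tested, 0.01.

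In the large subunit, Rpl10, which joins the subunit at a late step and shapes the peptidyl transferase centre, was read at 33.05, 27.05, 17.9 and 30.2 CPM in WT and 14.3, 14.6, 19.5 and 14.05 CPM in KO embryos 1 to 4. WT embryo 3 fell inside the KO range, giving a log2 fold change of −0.79 ± 0.19 (SE) at an edgeR FDR of 0.0849, or of 0.0092 without WT embryo 3. Rpl27, chosen after its values were seen because it had the lowest member FDR, stood at 17.7, 20, 13.4 and 15 CPM in WT and 11.8, 10.1, 10.5 and 8.71 CPM in KO embryos. Its groups did not overlap (log2 fold change −0.69 ± 0.15, edgeR FDR = 0.0638).

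Rpl5 and Rpl11 form, with a small ribosomal RNA, the particle that binds Mdm2 and stabilises p53 when ribosome assembly is disturbed. Rpl5 was read at 69.5, 68.9, 55.2 and 62.3 CPM in WT and 49.2, 51.3, 51.8 and 49.0 CPM in KO embryos, without overlap (log2 fold change −0.35 ± 0.08, edgeR FDR = 0.0863). Rpl11 was read at 4.26, 3.86, 3.83 and 3.54 CPM in WT and 2.55, 3.07, 3.50 and 3.13 CPM in KO embryos, also without overlap (log2 fold change −0.34 ± 0.15, edgeR FDR = 0.294). Both genes leaned low by a like amount, and 79.2% of Rpl11's windows were repeated elsewhere, against 48.7% for Rpl5.

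Rpl38 and Rpl24 are genes whose mouse mutants have skeletal and patterning defects. Rpl38 had the most negative log2 fold change of all members (−0.90 ± 0.36, edgeR FDR = 0.237), and it rested on 12 to 46 reads per embryo. Its levels were 1.92, 0.80, 0.88 and 0.99 CPM in WT and 0.46, 0.54, 0.89 and 0.59 CPM in KO embryos, so that WT embryo 1 stood apart from the rest. Rpl24 was read at 1.53 to 3.67 CPM (log2 fold change −0.62 ± 0.25, edgeR FDR = 0.248).

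The stalk of the large subunit, which recruits the GTPases of translation, is made of Rplp0, Rplp1 and Rplp2. Rplp0 was read at 1522, 1638, 1180 and 1449 CPM in WT and 1298, 1241, 1436 and 1298 CPM in KO embryos, with overlap (log2 fold change −0.14 ± 0.10, edgeR FDR = 0.515). Rplp1 overlapped as well (log2 fold change −0.15 ± 0.13, edgeR FDR = 0.584). Rplp2 differed in its order of embryos, at 74.7, 59.9, 84.3 and 78.7 CPM in WT and 58.3, 56.7, 55.4 and 43.5 CPM in KO embryos, with WT embryo 3 the highest of all and no overlap (log2 fold change −0.48 ± 0.12, edgeR FDR = 0.0968, and 0.0940 without WT embryo 3). Rpl41, the shortest protein of the ribosome, was read at 345 to 689 CPM, both in WT embryos (log2 fold change −0.12 ± 0.17).

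In the small subunit, Rps27 was read at 4.30, 3.90, 2.61 and 2.24 CPM in WT and 1.47, 2.20, 2.30 and 1.47 CPM in KO embryos, and WT embryo 4 fell inside the KO range (log2 fold change −0.81 ± 0.27, edgeR FDR = 0.173). Rps16 stood at 2.67, 2.08, 2.28 and 2.47 CPM in WT and 1.16, 1.20, 2.46 and 0.93 CPM in KO embryos, where KO embryo 3 alone reached the WT range (log2 fold change −0.74 ± 0.29, edgeR FDR = 0.240). Rps27a, made as a fusion with ubiquitin, had 11.2, 9.22, 6.62 and 10.5 CPM in WT and 4.755, 5.26, 8.05 and 4.60 CPM in KO embryos (log2 fold change −0.73 ± 0.22, edgeR FDR = 0.143). In Rps27a as in Rpl10, WT embryo 3 and KO embryo 3 were the embryos that made the groups overlap.

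Rps12, chosen after its values were seen, was read at 13.4, 9.93, 9.44 and 11.6 CPM in WT and 6.92, 7.50, 7.58 and 6.02 CPM in KO embryos, without overlap (log2 fold change −0.67 ± 0.14, edgeR FDR = 0.066). Rps6, the substrate of S6 kinase, was read at 40.1, 42.7, 30.5 and 30.7 CPM in WT and 27.4, 29.6, 28.3 and 26.6 CPM in KO embryos, also without overlap (log2 fold change −0.36 ± 0.12, edgeR FDR = 0.175). Rps23, which sits at the decoding centre, did not overlap either (log2 fold change −0.72 ± 0.25, edgeR FDR = 0.186). Of the windows of Rps12, Rps6 and Rps23, 98.1, 94.7 and 92.2% were repeated elsewhere. In all, 8 of 81 members (9.88%) were lower in every KO than in every WT embryo (background 6.33%), namely Rpl5, Rpl10a, Rpl11, Rpl27, Rplp2, Rps6, Rps12 and Rps23, and 0 were higher in every KO embryo (background 3.96%).

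Other small-subunit genes of known role lay near 0. Rps14, whose loss contributes to the anaemia of a chromosome-arm deletion in people, was read at 540, 645.5, 339 and 512 CPM in WT and 485, 443, 604 and 484 CPM in KO embryos (log2 fold change −0.02 ± 0.17). Rpsa, known also as a laminin receptor, had a log2 fold change of −0.05 ± 0.15, and Rps4x of 0.01 ± 0.15. Rps2 and Rps28 were likewise within 0.02 of 0 on the log2 scale.

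The fold change was related to the level. Across the 81 members the log2 fold change and log2 mean RPKM had Spearman's rho = 0.72 (Pearson's r = 0.73), so the more negative values belonged to the members read least. The 25 members with at least 80% of windows repeated had a median log2 fold change of −0.36 (11 with an unadjusted p under 0.05), and the 28 with under 50% repeated had −0.14 (6 of 28), beside 10.1% of all genes lower at that p. The lean below 0 thus held in both, with 24 of 25 and 27 of 28 members below 0. Both relations are descriptions over genes read in the same libraries.

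Embryos of 1 genotype differed by more than the genotype means did. The deviation of an embryo was taken as the median over the 81 members of log2(CPM + 0.5) minus the 8-embryo mean. WT embryos 1 to 4 stood at 0.25, 0.28, −0.25 and 0.09 and KO embryos 1 to 4 at −0.13, −0.14, 0.13 and −0.17. The means were 0.092 in WT and −0.079 in KO embryos. WT embryo 3 was the lowest of the WT embryos in 69 of 81 members and the lowest of all 8 embryos in 35, and KO embryo 4 was the lowest of all in 28. WT embryos 1 and 2 held the highest value in 29 and 41 members. The large and the small subunit gave the same order of embryos at the extremes, with WT embryo 2 highest and WT embryo 3 lowest in both. The median of all genes tested stayed within 0.02 of 0 in every embryo.

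Short transcripts that were not members deviated in the same embryos and by less. Their medians over 766 genes were 0.11, 0.19, −0.16 and 0.05 in WT and −0.10, −0.05, 0.10 and −0.12 in KO embryos. Mitochondrial ribosomal protein genes gave 0.12, 0.19, −0.09 and 0.09 in WT and −0.12, −0.06, 0.04 and −0.15 in KO embryos. In WT embryo 3 the summed erythroid markers were the lowest of all embryos (370 CPM, against 1175 to 3129 CPM in the others) and the summed cardiomyocyte markers the lowest of the WT embryos (3053 CPM). Summed neural markers were also the lowest of all embryos there (286 CPM). Pharyngeal mesoderm and second heart field (129 CPM), foregut endoderm (411 CPM) and endothelial markers (430 CPM) were the highest of all, and yolk sac and visceral endoderm markers stood at 4502 CPM. The part of transcript length, of cell makeup and of RNA quality in the members' deviations was not tested. KO embryo 2, the library labelled total RNA, did not stand apart from KO embryos 1 and 4 in the members.

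**Figure D3:**
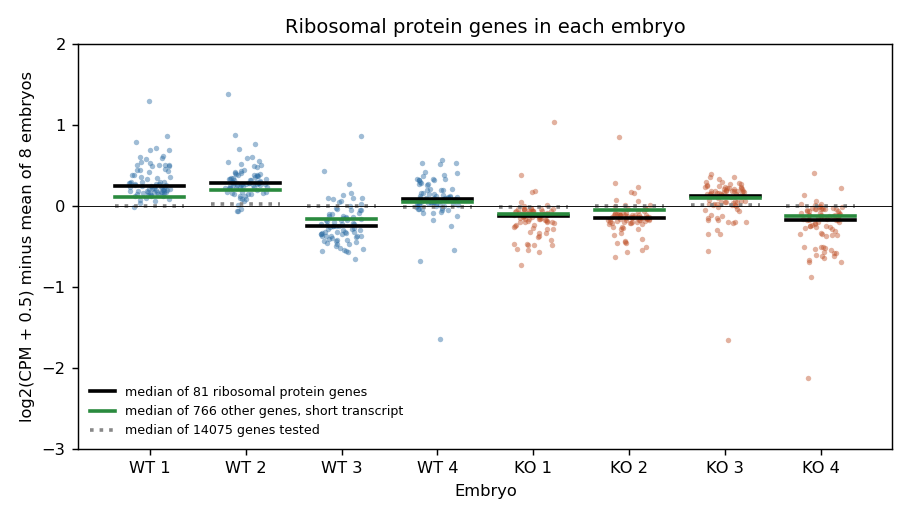
Deviation of each of the 81 ribosomal protein genes from its mean over 8 embryos, on the log2(CPM + 0.5) scale, for each embryo (points, WT blue, KO orange), with the median of the members (black), of 766 other genes with short transcripts (green) and of all 14075 genes tested (dotted grey). The members' median is highest in WT embryos 1 and 2 (0.25 and 0.28) and lowest in WT embryo 3 (−0.25), and KO embryo 3 (0.13) lies above the other KO embryos.

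A few members departed from this common pattern. Rps19, the gene most often mutated in Diamond-Blackfan anaemia, was read at 99.7, 106.6, 74.0 and 12.7 CPM in WT and 83.7, 73.2, 12.5 and 8.86 CPM in KO embryos 1 to 4. Thus 5 embryos lay between 73.2 and 106.6 CPM and WT embryo 4 and KO embryos 3 and 4 between 8.86 and 12.7 CPM, a 12-fold range that crossed the genotypes (log2 fold change −0.71 ± 0.76, edgeR FDR = 0.67). Y-linked reads were present in these 3 embryos and in KO embryo 1, and with a Y-linked covariate the log2 fold change turned to 0.52 (edgeR FDR = 0.824).

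Rpl34 was read at 142.8, 151.0, 51.8 and 72.5 CPM in WT and 58.5, 56.4, 71.1 and 108.6 CPM in KO embryos, with WT embryos 1 and 2 and KO embryo 4 high. A separate entry of the table named Rpl34-ps1, a pseudogene and therefore no member, had nearly the same values, 140.5, 149.0, 50.9 and 71.1 CPM in WT and 57.4, 55.2, 69.7 and 106.8 CPM in KO embryos. The reads of this gene and of its copy cannot be told apart here.

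Rpl26 and Rpl3 crossed the genotypes in other embryos. Rpl26, chosen after its values were seen, was read at 109.5, 131.5, 63.3 and 53 CPM in WT and 100.3, 90.7, 60.3 and 47.4 CPM in KO embryos. Rpl3 was low in WT embryo 4 (130 CPM) and KO embryo 3 (142 CPM) and between 176 and 307 CPM in the others. With the Y-linked covariate the log2 fold changes of Rpl26 and Rpl3 turned from −0.26 and −0.04 to 0.11 and 0.29, without passing the test. The windows of these genes were repeated elsewhere at 81.8% and 91.2%. Rpl30, also chosen after its values were seen, ranged from 24.1 CPM in KO embryo 1 to 65.7 CPM in WT embryo 2. By contrast Rpl7l1, Rps2 and Rpl8 varied least between embryos, with coefficients of variation of 5.58, 7.35 and 8.08% against a median of 17.7% for members tested, and Rps2 did so with 79.1% of its windows repeated. Over 78 members, the coefficient of variation had Spearman's rho of 0.57 with the percent of windows repeated (Pearson's r = 0.43), and over 81 members −0.66 with the summed counts (r = −0.61), which sets the counting error.

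**Figure D4:**
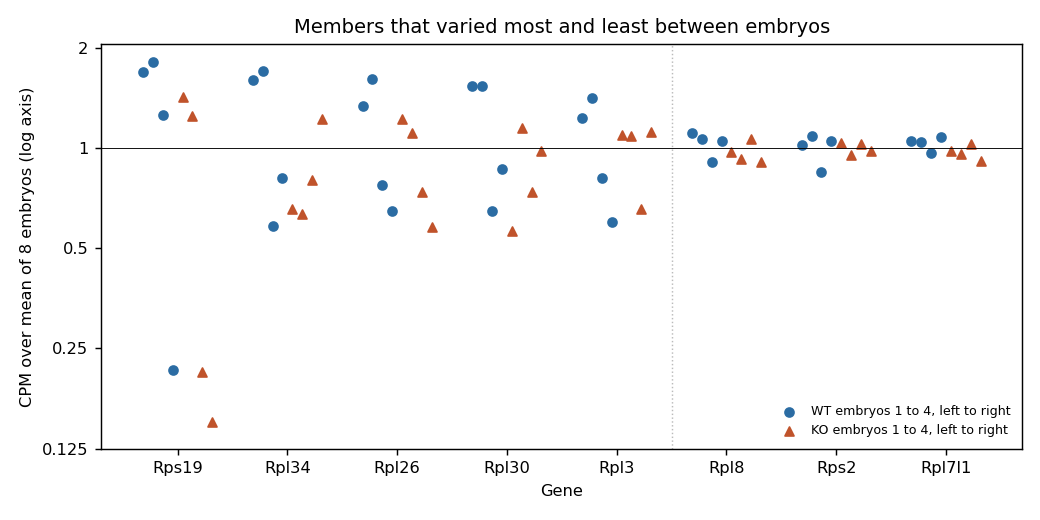
CPM of 8 ribosomal protein genes relative to the gene's mean over the 8 embryos (log axis), with WT embryos as blue circles and KO embryos as orange triangles, each from embryo 1 on the left to embryo 4 on the right. Rps19 falls into 5 high and 3 low embryos of both genotypes, whereas Rpl8, Rps2 and Rpl7l1, right of the dotted line, stay near 1.

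Some members have a paralog, a second gene for a like protein. In some pairs, but not in all, the paralog can take its partner's place in some tissues, which was not tested here. The testis or muscle paralogs were all but silent, and they were the 3 members not tested for lack of reads. Over the 8 embryos together Rpl10l had 6 reads, Rpl3l, known from striated muscle, had 15, and Rpl39l had 33. Rpl39l gave 6, 5, 7 and 8 reads in WT and 2, 5, 0 and 0 in KO embryos, a count of 0 being compatible with up to 3 reads. Rps4l was not analysed here.

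Rpl22l1 was read per length at 67.1 ± 2.46% of Rpl22 in WT and 62.0 ± 5.77% in KO embryos (SD, n = 4 each), with overlap. Rpl7l1 stood at 11.3 ± 2.10% and 11.3 ± 1.07% of Rpl7. Rps27l, a p53-induced paralog, far exceeded Rps27 per length, at 3085 ± 987% in WT and 4501 ± 812% in KO embryos, with overlap between the groups. Rpl36al exceeded Rpl36a likewise, at 2360 ± 366% and 2701 ± 626%. The partners Rps27 and Rpl36a had 99.7 and 92.6% of their windows repeated elsewhere. For the paralogs Rps27l and Rpl36al themselves this was 17.1 and 70.0%, so both terms of the Rpl36al ratio are uncertain. Rps27l itself was read at 77.4 to 109.1 CPM (log2 fold change −0.22 ± 0.10, edgeR FDR = 0.312).

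Ribosomal proteins that the naming rule leaves out gave like values. Of the 5 tested, 0 passed an FDR of 0.05 by edgeR or DESeq2 (median log2 fold change −0.36). At an unadjusted p under 0.05, 3 were lower, beside 10.1% of all genes. Rack1, a scaffold bound to the small subunit, was read at 1119 to 1619 CPM, with a log2 fold change of −0.05 ± 0.11.

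Other genes of ribosome production leaned low as well, with counts again read against 10.1% lower and 7.37% higher at an unadjusted p under 0.05. Of 48 ribosome biogenesis factors tested, all 48 had a log2 fold change below 0 (median −0.20), 31 had an unadjusted p under 0.05, 17 were lower in every KO than in every WT embryo (background 6.33%), and 0 passed an FDR of 0.05 by edgeR. The smallest p belonged to Noc3l, a factor of large-subunit maturation, at 107 ± 6.10 CPM in WT and 85.9 ± 5.09 CPM in KO embryos (SD, n = 4 each; log2 fold change −0.31 ± 0.07, edgeR FDR = 0.0601), and to Wdr43, of small-subunit processing (−0.29 ± 0.06, edgeR FDR = 0.0677). WT embryo 3 did not lie low in these factors, with a median deviation of 0.05, between 0.09 in WT embryo 4 and −0.03 in KO embryo 2. By DESeq2, 9 of them passed, against 709 of all 14075 genes (3.33% of genes lower). Without WT embryo 3 edgeR called 5, against 490 genes of all (2.71% of genes lower).

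RNA polymerase I, which transcribes the large ribosomal RNA precursor, had 1 of 19 genes called (background 0.973% of genes). Polr1e, one of its subunits, fell from 62.6 ± 4.97 CPM in WT to 45.8 ± 3.32 CPM in KO embryos (SD, n = 4 each; log2 fold change −0.45 ± 0.08, edgeR FDR = 0.0389), but no gene of the list was called with raw library totals, with limma, with a Y-linked covariate or in 6 of the 8 omissions of 1 embryo. The initiation factor gene Rrn3 had a log2 fold change of −0.30 ± 0.07 (edgeR FDR = 0.066), and the list's median was −0.16.

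Among 20 other genes with 5′ TOP mRNAs, mainly translation factors, 5 were lower and 1 higher at an unadjusted p under 0.05 (median log2 fold change −0.17). At the FDR threshold, 0 of them passed by edgeR (background 0.973%) but 4 by DESeq2, which called 709 of all 14075 genes. Tpt1, a translationally controlled growth protein, was read at 16.8 ± 3.79 CPM in WT and 8.95 ± 3.004 CPM in KO embryos (log2 fold change −0.91 ± 0.24, edgeR FDR = 0.0993), and the elongation factor gene Eef1d at 402 ± 40.4 and 321 ± 34.3 CPM (−0.32 ± 0.10, edgeR FDR = 0.137; SD, n = 4 each). Mitochondrial ribosomal protein genes, whose products translate mitochondrial mRNAs, had a median of −0.17, with 73 of 78 below 0, 15 lower at an unadjusted p under 0.05, and 0 passing by edgeR but 5 by DESeq2. Mrps23 (−0.30 ± 0.07, edgeR FDR = 0.0832) and Mrpl18 (−0.40 ± 0.10, edgeR FDR = 0.0866) had the smallest p among them.

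The regulators lay on both sides of 0, and DESeq2 calls among them stand beside 709 of 14075 genes called in either direction. Of 25 genes of mTOR, LARP1 and MYC control, 15 had a log2 fold change below 0 and 10 above, 2 were lower and 3 higher at an unadjusted p under 0.05 and 0 passed by edgeR and 1 by DESeq2 (median −0.05, but above 0 with raw library totals, limma or a Y-linked covariate). Ddit4, an inhibitor of mTOR complex 1, was read at 46.5 ± 18.2 CPM in WT and 102.5 ± 23.2 CPM in KO embryos (SD, n = 4 each; log2 fold change 1.14 ± 0.26, edgeR FDR = 0.0784), and Larp4, an mRNA-binding protein, had −0.27 ± 0.09 (edgeR FDR = 0.161). Of 20 p53 targets, 14 had a log2 fold change below 0 and 6 above, and 3 were lower and 0 higher at an unadjusted p under 0.05 (median −0.05, 0 past the FDR by edgeR and 1 by DESeq2), among them Aen, an exonuclease (−0.32 ± 0.09, edgeR FDR = 0.128), and Btg2, an antiproliferative gene (−1.35 ± 0.50, edgeR FDR = 0.213). Replication-dependent histones, whose mRNAs lack a polyA tail, were tested in 8 of 67 cases for lack of reads, with a median of −0.03 that ranged from −0.32 to 0.076 when 1 embryo was left out. Host genes of small nucleolar RNAs were not analysed here.

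**Figure D5:**
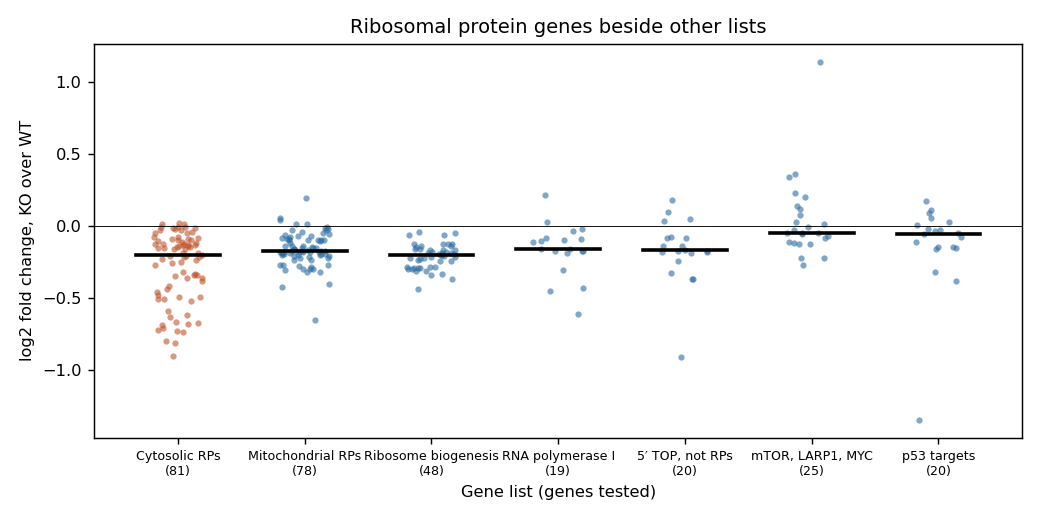
Log2 fold change in KO over WT embryos of each gene tested (points) in the cytosolic ribosomal protein genes (orange) and 6 other lists (blue), with the median of each list as a black bar and the number of genes below its name. The medians lie at −0.20 for cytosolic ribosomal proteins, −0.17 for mitochondrial ribosomal proteins and −0.20 for ribosome biogenesis factors, and at −0.05 for the regulators and for p53 targets.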

How the data were processed

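RNA of single embryos (100 ng) was sequenced on a NextSeq500. The authors mapped reads to mm9 with STAR (introns of 20 to 500000 bases) and counted them over exons with HOMER, without strand, so that the deposited counts are raw reads per RefSeq transcript. Reads of overlapping antisense genes cannot be told apart, and how reads matching several places were treated was not stated. From these counts the authors derived, with edgeR, the deposited RPKM values, using the deposited transcript length. Versions were not given in the sources used here, and the submitters' processing notes name STAR, DESeq2 and edgeR. The deposited columns of the authors' own DESeq2 comparison were not used.

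The 31507 entries were reduced to 20701 symbols. Counts were fitted with edgeR 4.0.16 in R 4.3.3 (filterByExpr, TMM, quasi-likelihood test, genotype as the only term, two-sided, 14075 genes), with the Benjamini-Hochberg FDR over all of them. DESeq2 1.42.0 and limma 3.58.1 on log2(RPKM + 1) served as alternatives, beside other scalings, no filter, the longest transcript, a replicate block, a Y-linked covariate and omission of each embryo. On simulated counts with 200 genes changed 2-fold, 174 were called among 14100 genes, with 7 false calls. Genes were simulated independently, with the same dispersion for every gene and no deviating embryo. The simulation therefore checks the fitting step and does not give the power or error rate for the members in these data. Total counts of 18916449 to 26153048 give counting errors that are small for most members and large for those read under 100 times, and reads carried no molecular identifiers.

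Transcript windows of 50 bases were matched exactly to mm9 with transcripts of GENCODE vM1, found for 81 of 84 members. Promoters came from RefSeq (GRCm38.p6), found for 64 members. Some genes within the counts are not reported here. The members and all gene lists were chosen with earlier results of these data known. Named genes were Isl1, members past the FDR, the 5 members at each end of fold change and of level, the 3 most and least variable, paralog pairs, untested members, a list of members of known role and, of each companion list, genes past the FDR or the 2 with the smallest p. Genes named outside this rule were chosen after their values were seen: Rpl9, Rpl10a, Rpl26, Rpl27, Rpl30, Rpl32l, Rps12, Rps21, and those given beside them as examples.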

Additional observations from a re-analysis of the deposited data

Results flagged for a closer look

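Within each group of 4 embryos, the highest or lowest embryo was tested for standing apart from the other 3 by Dixon's criterion, in 98 groups of values, where chance flags about 1 in 20 groups. Of 9 values that stood apart, 8 were of KO embryo 3. It was higher than the other KO embryos for Rpl10 (19.5 against 14.05 to 14.6 CPM), Rpl22l1 (69.6 against 48.4 to 50.1 CPM), Rpl32 (694 against 538 to 559 CPM), Rpl39 (65.4 against 47.0 to 47.5 CPM), Rpl4 (2647 against 2190 to 2240 CPM) and Rpl7 (811 against 610 to 631 CPM). It was lower for Rpl3 (142 against 235 to 243 CPM). The members' median deviation in KO embryo 3 was 0.126, against −0.171 to −0.128 in the other KO embryos. These values share 1 library and are not independent of each other. WT embryo 1 was higher than the other WT embryos for Rpl38 (1.92 against 0.798 to 0.988 CPM).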

How the results depend on the processing

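No member changed direction on passing a threshold, and 15 alternative values of named members passed the threshold where the main test did not, all under DESeq2 or without WT embryo 3 or KO embryo 3. DESeq2 called 7 members and 709 genes of all, and among the lists 4 of the 5′ TOP genes, 9 biogenesis factors, 4 of RNA polymerase I, 1 mTOR regulator, 1 p53 target and 5 mitochondrial ribosomal proteins. Omitting 1 embryo at a time, calls ranged from 0 to 8 (members), 70 to 490 (all genes), 0 to 4 (5′ TOP), 0 to 5 (biogenesis), 0 to 2 (RNA polymerase I), 0 to 2 (mTOR) and 0 to 5 (mitochondrial), each highest without WT embryo 3, and for RNA polymerase I as high without KO embryo 2. Counts at an unadjusted p under 0.05 then ranged from 12 to 46 (members), 1 to 4 (ribosomal proteins outside the rule), 4 to 14 (5′ TOP), 15 to 33 (biogenesis), 5 to 12 (RNA polymerase I), 3 to 8 (mTOR), 1 to 3 (p53), 6 to 45 (mitochondrial) and 0 to 1 (histones, median −0.32 to 0.076). With the Y-linked covariate these counts were 0 outside the rule, 3 of 5′ TOP, 13 of biogenesis, 3 of mTOR, 1 of p53 and 7 mitochondrial, and with limma 19 of biogenesis, 8 of mTOR, 1 of p53 and 8 mitochondrial. Raw library totals gave 20 of biogenesis and 7 mitochondrial, and no filter on low counts gave 1 histone. All of these counts are given without direction. The share of all genes lower at that p was 6.66% without WT embryo 1, 9.6% without KO embryo 3 and 13.9% without WT embryo 3. These shares leave out genes that were higher, 7.37% of all in the main fit, and so are too small a background for counts without direction. For the covariate, limma, raw totals and no filter the share is not given here, so those counts have no background. RNA polymerase I had 0 calls with the covariate, limma, raw totals and the replicate block, and its median with limma was −0.091. The mTOR list's median turned to 0.0030 with the covariate, 0.0086 with limma and 0.0082 with raw totals. Among the members followed by name across the alternatives, 11 turned the sign of their log2 fold change, and none passed the threshold there. Other members near 0 turned as well, such as Rps28 (0.0031 with DESeq2). With the Y-linked covariate Rps19 turned to 0.52, Rpl3 to 0.29, Rpl26 to 0.11, Rpl14 to −0.022, Rpl39 to −0.044 and Rps4x to −0.0095. With limma, Rpl22 turned to 0.019, Rpl3 to 0.065, Rps14 to 0.069, Rps2 to 0.059 and Rpsa to 0.030, and with raw totals these were 0.0088, 0.027, 0.042, 0.053 and 0.010. Rps2 was 0.0044 with DESeq2 and with RLE size factors (0.0044) and 0.012 without the filter, where Rps14 was 0.00047. Omitting 1 embryo at a time, Rpl14 ranged from −0.10 to 0.082, Rpl22 from −0.16 to 0.021, Rpl3 from −0.22 to 0.17, Rpl39 from −0.11 to 0.087, Rpl41 from −0.28 to 0.027, Rps14 from −0.17 to 0.12, Rps2 from −0.074 to 0.036, Rps4x from −0.12 to 0.12 and Rpsa from −0.18 to 0.064. Over all transcript entries, members took 1.15% of counts in WT and 1.10% in KO embryos. The causes were not tested.

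Whether replicate numbers pair the embryos cannot be told from these values. Correlations of same-numbered embryos' deviations were 0.109, 0.212, 0.086 and 0.507, and those of differently numbered embryos ran from −0.673 to 0.552. Not each embryo correlated best with its own number. With the replicate block, 76 genes of all and 0 members were called. At an unadjusted p under 0.05, 18 members were lower there (8.08% of all genes). Of the members followed by name, Rpl3, Rps14 and Rps2 turned to 0.0035, 0.0085 and 0.0026. Depth limits the members read least, among them Rpl38 and Rps29.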
